A study of Homo sapiens with 24 samples.

Results

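The genes described here act in G2 and mitosis, the stretch of the cell cycle in which a cell that has copied its DNA prepares to divide and then separates its chromosomes. They are 35 of the 19775 genes named on the arrays, taken by gene symbol. Each gene was read by 1 probe set, the one with the highest mean over the 24 arrays. The list holds the cyclins CCNA2, CCNB1, CCNB2 and CCNF with CDK1, CDC25B and CDC25C, the kinases PLK1, AURKA, AURKB and NEK2, and the checkpoint genes BUB1, BUB1B, BUB3, MAD2L1 and TTK. It further holds CDC20, UBE2C and PTTG1 of the anaphase machinery, the centromere genes CENPA, CENPE and CENPF, the kinesins KIF11, KIF20A, KIF23 and KIF2C, the spindle and cytokinesis genes TPX2, HMMR and ECT2, the passenger complex subunits BIRC5 and CDCA8, and CDCA3, TOP2A, MKI67 and FOXM1.

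The arrays were made from HEK293 cells, an established human embryonic kidney line, in 8 conditions of 3 biological replicates each. The cells received no DNA (untransfected), the empty vector pCDNA3, or the same vector coding for Flag-tagged wild type SIRT6 or its H133W mutant, which lacks deacetylase activity. After 24 h each kind of cell was given TNFα at 10 ng/ml or, as the unstimulated control, the carrier alone, for 4 h according to the methods and 1 h according to the design text of the series. Transfection was transient, so that each well can hold cells with and without plasmid, and all conditions are of 1 cell line. Changes are given as differences of log2 values, and a gene is said to have risen or fallen where the adjusted p in the limma fit over all arrays was under 0.05, at any fold. The replicates are those of the labels, the p-values measure the spread between these arrays, and the 3 arrays per condition limit the precision. A signal on an array gives no amount of RNA that can be set against that of another gene. Changes are therefore taken within a gene, and the percentiles and summed levels given below describe signals and not amounts.

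Entry into mitosis is driven by cyclin B bound to CDK1, which CDC25 phosphatases switch on, and by the Polo-like and Aurora kinases. The spindle assembly checkpoint then holds back the anaphase-promoting complex until every chromosome is attached to the spindle, after which this ubiquitin ligase marks securin and the cyclins for destruction. Messages of these genes accumulate in G2 and fall again after division, so in an unsynchronised line such as HEK293 their level reflects all phases at once.

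For HEK293 cells, VIM, NEFL, LIN28B and KRT18 were at the percentiles 96.0, 98.9, 93.1 and 89.3 of all named genes by mean log2 value, KRT8, NEFM and PAX2 at 75.7, 36.5 and 35.2, while the blood cell markers PTPRC, CD3E and CD14 were at 8.27, 0.819 and 25.9. The 2 probe sets of SIRT6 were higher by 0.98 ± 0.21 (SE) and 0.28 ± 0.071 in H133W cells than in empty vector cells, over both stimulation states (adjusted p = 0.00421 and 0.0149), and by 0.67 ± 0.21 and 0.11 ± 0.071 in SIRT6 cells (adjusted p = 0.189 and 0.684). Whether the sequence in the plasmids is detected by these probe sets was not determined. At the protein level, the study reported expression of both SIRT6 and H133W by Western blot of extracts of the transfected cells. The log2 difference between the 3′ and 5′ control probe sets of β-actin, which grows when RNA is degraded or incompletely copied, was 3.03 on replicate 3 of H133W cells with TNFα and 2.05 on replicate 2 of unstimulated empty vector cells, against 1.33 to 1.79 on the other 22 arrays. These arrays and replicate 2 of unstimulated untransfected cells also had the lowest weights that limma estimated, 0.0844, 0.383 and 0.311. Counts without these 3 arrays are therefore given beside the main ones.

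Promoters of many of these genes share a pair of short elements, and the 5 shown here belong to genes that fell in H133W cells and carry either or both. The cell cycle genes homology region (CHR) is the site of the DREAM and MuvB complexes, and the CCAAT box that of NF-Y. In capitals are CHR elements, TTTGAA or TTTAAA, and CCAAT boxes, CCAAT or on the other strand ATTGG. Each line holds 120 bases before and 10 bases from the start site on, 5′ to 3′ on the strand of the gene, from RefSeq on GRCh38.p14.
CCNB1, chr5:69167030-69167159, + strand: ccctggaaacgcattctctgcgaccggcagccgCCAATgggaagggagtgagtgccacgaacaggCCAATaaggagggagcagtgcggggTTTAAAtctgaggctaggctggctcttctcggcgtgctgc
PLK1, chr16:23678769-23678898, + strand: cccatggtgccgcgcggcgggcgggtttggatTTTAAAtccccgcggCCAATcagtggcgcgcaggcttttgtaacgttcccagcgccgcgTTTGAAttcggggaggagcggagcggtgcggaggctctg
CDCA3, chr12:6851277-6851406, - strand: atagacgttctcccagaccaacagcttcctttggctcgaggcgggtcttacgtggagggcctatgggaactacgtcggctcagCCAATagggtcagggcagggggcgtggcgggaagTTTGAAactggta
CENPA, chr2:26785936-26786065, + strand: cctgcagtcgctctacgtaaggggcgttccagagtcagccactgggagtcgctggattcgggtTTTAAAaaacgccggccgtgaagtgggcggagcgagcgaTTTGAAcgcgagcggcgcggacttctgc
BUB1, chr2:110678054-110678183, - strand: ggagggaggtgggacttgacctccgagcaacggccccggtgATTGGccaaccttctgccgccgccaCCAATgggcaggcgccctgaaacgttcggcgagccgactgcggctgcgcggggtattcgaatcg

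CCNB1 carried 2 CCAAT boxes ahead of a TTTAAA, whereas CDCA3 had 1 CCAAT box and a TTTGAA that began 3 bases before the start site. CENPA had both forms of the CHR and BUB1 none in its window, which reached from 250 bases before the start site to 50 after it. A window was at hand for 28 of the 35 genes, and not for TTK, FOXM1, AURKA, TPX2, UBE2C, BUB3 and BIRC5. Searched on both strands, 24 of the 28 genes (85.7%) held a TTTGAA or TTTAAA, 25 (89.3%) a CCAAT box, and 20 (71.4%) both in the same window. Over the 15384 named genes with a window the shares were 24.0%, 41.7% and 9.91%. Among 56 further mitotic genes with a window they were 76.8%, 67.9% and 53.6%, and of 35 genes of G1-S and replication licensing 7, 22 and 4 held a CHR, a CCAAT box and both. Genes with several start sites have several windows, and among genes with 1 window the shares for the CHR were 86.4% of 22 and 18.8% of 11469. The E2F site, searched as TTTCGCGC or TTTGGCGC, was found in 1 of the 28 genes (3.57%), in 13 of the 35 G1-S genes (37.1%) and in 1.87% of all. TTTAAA reads the same on both strands and was counted once, and none of the motifs contains another.

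**Figure D1:**
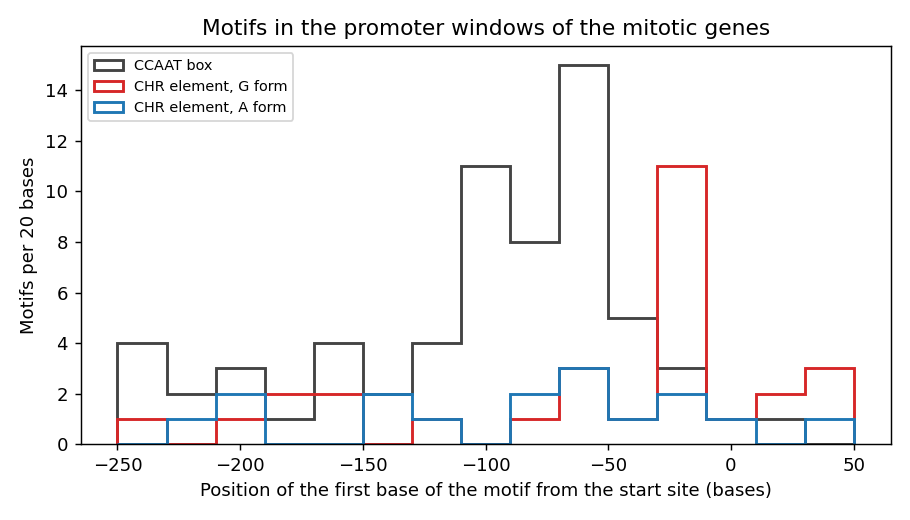
Number of CCAAT boxes and CHR elements (G form TTTGAA, A form TTTAAA) per 20 bases in the promoter windows of 28 mitotic genes, against the distance of the first base of the motif from the start site in bases. Of 64 CCAAT boxes 39 began at positions −110 to −31 from the start site, and of 29 TTTGAA elements 16 began at −70 to 9. A motif lying in overlapping windows of the same gene was counted in each of them, so these numbers exceed those of separate motifs.

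The positions differed by motif, with a median of −87.0 bases for CCAAT boxes, −29.0 for TTTGAA and −76.0 for TTTAAA. These medians too count a motif in each window that holds it. Among the genes with a window, the median log2 change in H133W cells against empty vector cells was −0.12 for the 24 with a CHR and −0.12 for the 4 without one. Of the 7 genes with a window that fell in that comparison, 5 held a CHR and 6 a CCAAT box. A match of letters is a description and no proof of a site.

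All 35 genes lay above the median of the named genes by mean log2 value, and 14 lay above the 90th percentile. Over the 8 conditions the mean of a gene ranged by 0.13 (CCNF) to 0.61 (CENPA) on the log2 scale, with a median of 0.23, while the pooled SD within conditions was 0.038 to 0.18 with a median of 0.083. Unstimulated H133W cells had the lowest of the 8 means in 24 genes and H133W cells with TNFα in 7. The highest mean was in untransfected cells for 21 genes, 12 of them with TNFα and 9 without.

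**Figure D2:**
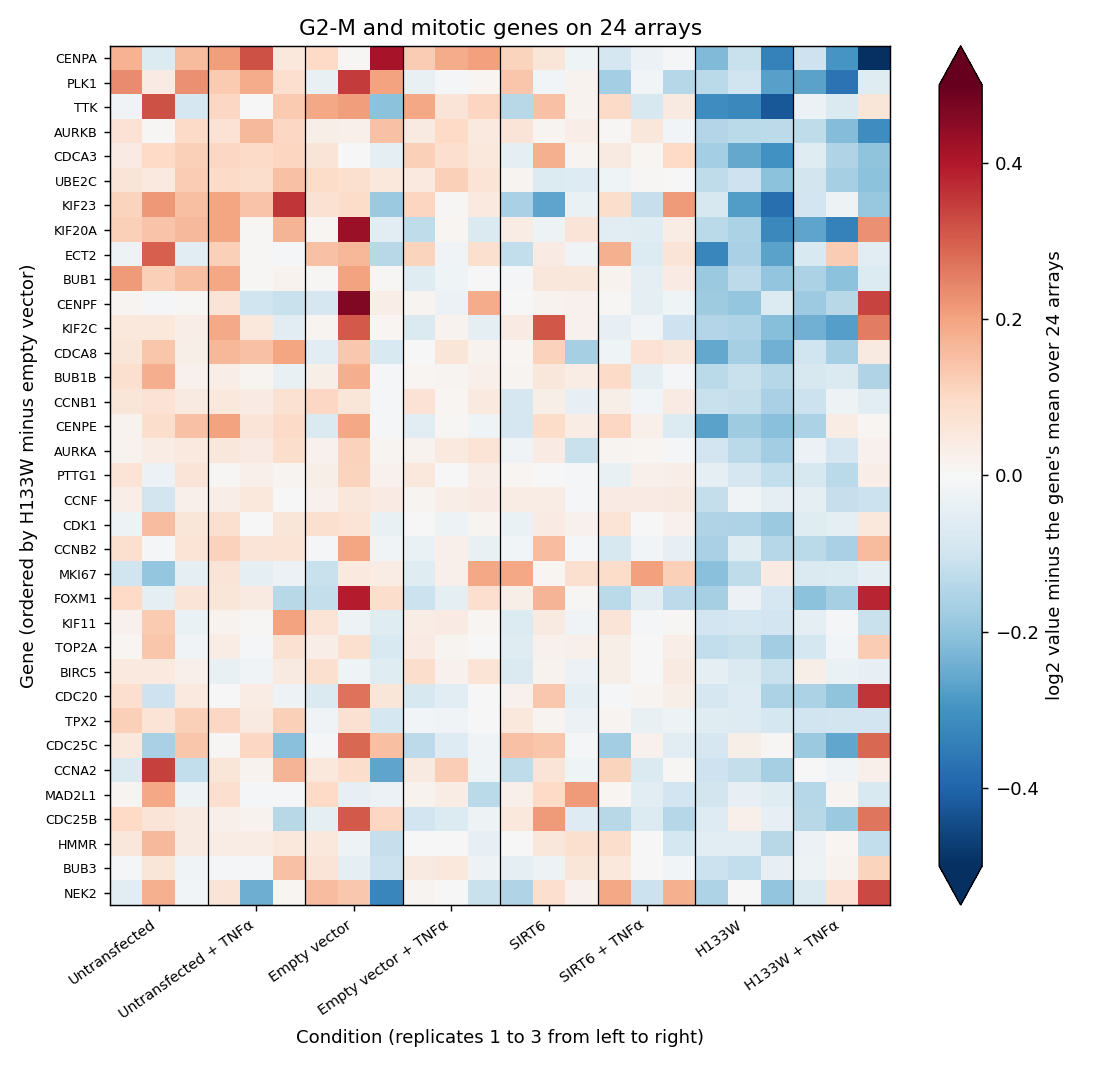
Log2 value of each gene on each array minus the mean of that gene over the 24 arrays, as colour (red above, blue below its mean, full colour at 0.5). Genes are ordered by their change in H133W cells against empty vector cells, and arrays by condition. The blue columns are those of H133W cells, except that replicate 3 with TNFα is red for CDC20, CENPF and FOXM1 among others, as is replicate 2 of the unstimulated empty vector cells.

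In H133W cells the genes lay below the empty vector cells almost throughout. Taken over both states, without and with TNFα, 34 of the 35 changes were negative, with NEK2 as the exception, and the median change was −0.11 (−7.60%) against −0.01 over all named genes. Of these, 10 fell and none rose. Over all named genes 11.9% were called in this comparison and 5.34% were called lower. In bulk RNA, fewer cells in G2 or mitosis and less RNA of these genes per cell cannot be told apart. For 9 of the 35 genes all 6 H133W arrays lay below all 6 empty vector arrays, a pattern that 2.43% of all named genes had. The number of genes that fell was 17 without H133W replicate 3 with TNFα and 7 without replicate 2 of the unstimulated empty vector cells. Without all 3 arrays named above 16 fell, where 8.87% of all named genes were called lower, the median change was −0.12, and all 35 were negative. Fitted on the arrays of the comparison alone, 4 fell over both states, and none in either state by itself. For fits without a single array or on the arrays of the comparison alone, here and below, the share of all named genes called was not determined. A change in such a count can thus not be set against that of all genes.

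In unstimulated cells alone all 35 changes were negative, with a median of −0.19 against −0.04 over all named genes, and 3 genes fell (UBE2C, CDCA3 and TTK). In this comparison 3.79% of all named genes were called and 1.22% called lower. The number that fell was 0 without empty vector replicate 2 or without H133W replicate 3, 1 without empty vector replicate 1 or without H133W replicate 1 or 2, and 5 without empty vector replicate 3. Without empty vector replicate 2 the median was −0.12. With TNFα 29 changes were negative, with a median of −0.07 against 0.01 over all named genes, and 4 genes fell (AURKB, UBE2C, CENPA and CDCA3). There 6.91% of all named genes were called and 2.42% called lower. The count was 1 without empty vector replicate 2, 2 without empty vector replicate 3, 2 without H133W replicate 3, and 3 or 4 without another array of these conditions. Only CENPA changed by more than 1.5-fold as well, as did 1.72% of all named genes. Without H133W replicate 3 the median with TNFα was −0.11. With the β-actin difference as a covariate AURKB, UBE2C, CENPA and CDCA3 were at −0.20, −0.20, −0.25 and −0.20 with TNFα and no longer passed (adjusted p = 0.0525, 0.0581, 0.179 and 0.155), and 3 others did, CENPF, KIF20A and KIF2C, at −0.34 ± 0.090, −0.36 ± 0.090 and −0.33 ± 0.078 (adjusted p = 0.0378, 0.0315 and 0.0213). The same covariate gave 16 genes that fell in unstimulated cells and 22 over both states, where 3.94% and 9.67% of all named genes were called lower, and 1.89% were with TNFα. The changes were negative in both states for 29 genes.

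**Figure D3:**
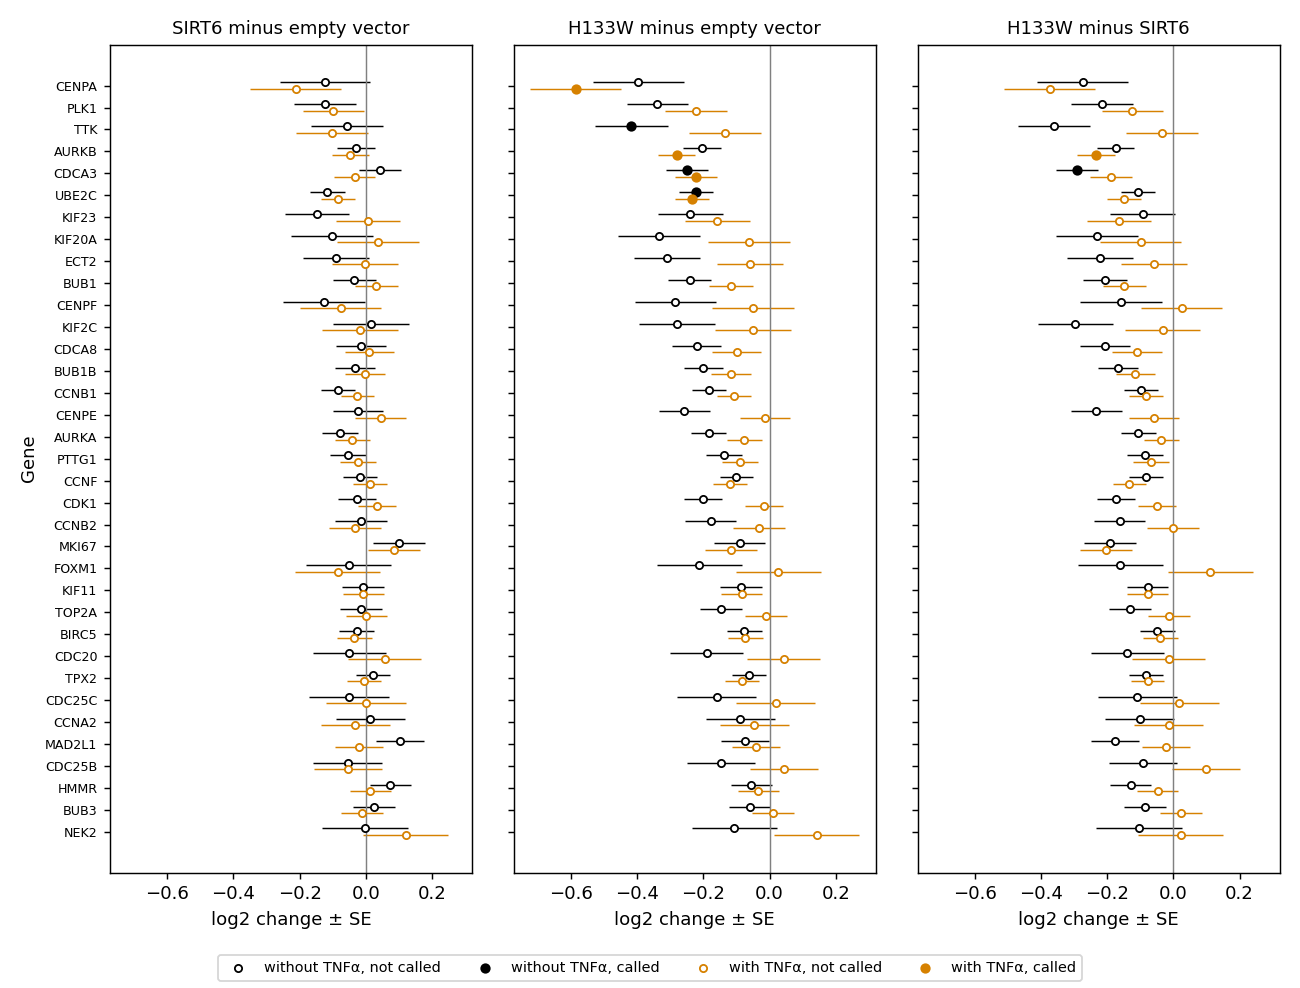
Log2 change ± SE of the 35 genes for SIRT6 against empty vector (left), H133W against empty vector (middle) and H133W against SIRT6 (right), in unstimulated cells (black) and with TNFα (orange). Filled points passed the test. In the middle panel the black points all lie left of 0, with CENPA, PLK1 and TTK farthest, while the left panel scatters about 0.

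The cyclin and CDK1 group was lower in all 7 members over both states, with a median of −0.11, and 1 of them, CCNB1, fell. CCNB1, the cyclin that activates CDK1 for entry into mitosis, had log2 values of 12.02, 11.98 and 11.91 in unstimulated empty vector cells and 11.81, 11.80 and 11.76 in H133W cells. With TNFα it read 11.99, 11.93 and 11.97 in empty vector cells and 11.81, 11.89 and 11.86 in H133W cells. The arrays did not overlap in either state, and over both CCNB1 fell by 0.14 ± 0.036 (SE, adjusted p = 0.0135). The other probe set of CCNB1 was at −0.20 ± 0.078 and did not pass (adjusted p = 0.128). The kinase CDK1 itself read 11.68, 11.66 and 11.56 in unstimulated empty vector cells and 11.44, 11.44 and 11.41 in H133W cells. These do not overlap, but the difference of −0.20 did not pass (adjusted p = 0.0672), and with TNFα the difference was −0.02 (adjusted p = 0.916). Over both states this probe set was at −0.11 (adjusted p = 0.110), whereas the 3 other probe sets of CDK1 fell by 0.22, 0.26 and 0.39 (adjusted p = 0.00168, 0.000861 and 0.0332). CCNF, an F-box protein, CCNB2, CCNA2 and the phosphatases CDC25B and CDC25C were between −0.11 and −0.05 over both states, with adjusted p from 0.0624 to 0.755. Further probe sets of CCNA2, CDC25C and CCNB2 fell by 0.26, 0.50 and 0.22 (adjusted p = 0.000673, 0.0241 and 0.0488). Another of CCNB2 was at 0.11 and another of CDC25C at −0.35 (adjusted p = 0.542 and 0.0774).

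Of the mitotic kinases 3 of 4 fell. AURKB, the catalytic subunit of the chromosomal passenger complex that corrects wrong attachments to the spindle, read 11.62, 11.61 and 11.74 in unstimulated empty vector cells and 11.44, 11.46 and 11.46 in H133W cells. With TNFα it read 11.63, 11.69 and 11.64 against 11.46, 11.37 and 11.28. All 6 H133W arrays were below all 6 empty vector arrays, and AURKB fell by 0.24 ± 0.040 over both states (adjusted p = 0.000446). The other probe set of AURKB was at −0.18 ± 0.081 and did not pass (adjusted p = 0.207). PLK1, the Polo-like kinase that promotes mitotic entry and spindle formation, read 8.80, 9.19 and 9.04 in unstimulated empty vector cells against 8.71, 8.74 and 8.57 in H133W cells. With TNFα the values were 8.80, 8.84 and 8.85 against 8.57, 8.47 and 8.78. PLK1 was thus lower on every H133W array, by a small margin on some, and fell by 0.28 ± 0.066 (adjusted p = 0.00901). AURKA, the kinase of the spindle poles, fell by 0.13 ± 0.038 (adjusted p = 0.0334) with arrays that overlapped, and it no longer passed without empty vector replicate 2 (11.83 against 11.73 on both other arrays) or any of 6 other arrays. The other probe sets of AURKA fell by 0.15 ± 0.044 and 0.24 ± 0.041 (adjusted p = 0.0378 and 0.000759). NEK2, which separates the centrosomes, was the exception of the list at 0.02 ± 0.091 (adjusted p = 0.945).

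The spindle assembly checkpoint group was lower in all 5 members, and 3 fell. BUB1 is a kinase that recruits checkpoint proteins to kinetochores. It read 9.63, 9.83 and 9.63 in unstimulated empty vector cells and 9.44, 9.49 and 9.43 in H133W cells, and with TNFα 9.56, 9.60 and 9.62 against 9.46, 9.42 and 9.55. The highest H133W array with TNFα, at 9.55, was just under the lowest empty vector array at 9.56, and BUB1 fell by 0.18 ± 0.046 (adjusted p = 0.0173). When all of its 5 probe sets were averaged the change did not pass (adjusted p = 0.373). BUB1B, coding for BubR1, which holds back the anaphase-promoting complex, read 10.55, 10.70 and 10.51 against 10.38, 10.40 and 10.37 unstimulated, and 10.53, 10.53 and 10.54 against 10.44, 10.44 and 10.37 with TNFα. Its arrays did not overlap, and it fell by 0.16 ± 0.042 (adjusted p = 0.0210), though not without empty vector replicate 2 or H133W replicate 3 of the unstimulated cells. TTK, the kinase MPS1 at the head of the checkpoint, fell by 0.28 ± 0.077 over both states (adjusted p = 0.0271) and by 0.42 ± 0.11 in unstimulated cells (adjusted p = 0.0411). Unstimulated TTK read 9.53, 9.55 and 9.13 against 9.03, 9.02 and 8.91, with H133W arrays below the lowest empty vector array, but with TNFα it read 9.53, 9.40 and 9.44 against 9.31, 9.27 and 9.40, where they met at 9.40. Its call over both states was lost without empty vector replicate 1, empty vector replicate 2 or H133W replicate 3 of the unstimulated cells, or without empty vector replicate 1 or H133W replicate 2 with TNFα. MAD2L1 and BUB3, the other two of the checkpoint, were at −0.06 ± 0.051 and −0.02 ± 0.044 (adjusted p = 0.584 and 0.819). A further probe set of MAD2L1 fell by 0.22 (adjusted p = 0.00189) and one of BUB3, its dimmest, by 0.28 (adjusted p = 0.0103). The remaining one of MAD2L1 was at −0.35 (adjusted p = 0.190). Those of BUB3 were at −0.07, −0.02, −0.17 and −0.20 (adjusted p = 0.350, 0.864, 0.452 and 0.220), and none of these passed.

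Of the 3 genes of the anaphase machinery UBE2C fell. UBE2C, the ubiquitin-conjugating enzyme that serves the anaphase-promoting complex, read 11.08, 11.07 and 11.04 in unstimulated empty vector cells and 10.86, 10.88 and 10.78 in H133W cells. With TNFα it read 11.03, 11.10 and 11.05 against 10.89, 10.82 and 10.78. No array overlapped in either state, and the fall of 0.23 ± 0.037 had the smallest adjusted p of the 35 genes, 0.000339. It was alike without TNFα (−0.22 ± 0.052, adjusted p = 0.0201) and with it (−0.23 ± 0.052, adjusted p = 0.0110). PTTG1, coding for securin, and CDC20, the activator of the complex, were at −0.11 ± 0.039 and −0.07 ± 0.078 and did not pass (adjusted p = 0.0718 and 0.662).

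The centromere group was lower in all 3 members. CENPA, the histone variant that marks the centromere, had the largest change of the 35 genes over both states, by the probe set read for each. It read 7.44, 7.34 and 7.75 in unstimulated empty vector cells and 7.11, 7.22 and 6.99 in H133W cells, and with TNFα 7.46, 7.52 and 7.54 against 7.23, 7.04 and 6.49. The 6.49 came from H133W replicate 3, the array with the large β-actin difference. AURKB, UBE2C and CDCA3, which also fell with TNFα, had their lowest H133W values there on the same array, at 11.28, 10.78 and 10.28. Without that array the calls of AURKB and UBE2C with TNFα were kept, and that of CDCA3 was lost. CENPA fell by 0.49 ± 0.097 over both states (adjusted p = 0.00231) and by 0.59 ± 0.14 with TNFα (adjusted p = 0.0156), and with TNFα it no longer passed without that array or without empty vector replicate 2 or 3. CENPF and CENPE, proteins of the outer kinetochore, were at −0.17 ± 0.087 and −0.14 ± 0.054 (adjusted p = 0.277 and 0.134).

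None of the 4 kinesins passed by limma or by the plain linear model, although KIF23 and KIF20A, motors of the central spindle, were at −0.20 ± 0.069 and −0.20 ± 0.087 and were the 2 of them with an unadjusted p under 0.05. KIF2C, which takes apart microtubule ends, and KIF11, which pushes the spindle poles apart, were at −0.17 ± 0.081 and −0.09 ± 0.044. ECT2, which activates RhoA for cytokinesis, TPX2, which activates AURKA, and HMMR, which binds spindle microtubules, were at −0.18 ± 0.070, −0.07 ± 0.036 and −0.04 ± 0.044. None of these 3 passed by limma, with 1 at an unadjusted p under 0.05 and 1 called by the plain linear model. In H133W against empty vector cells over both states, 5014 of the 19775 named genes had an unadjusted p under 0.05.

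CDCA3, a partner of the SCF ubiquitin ligase, read 10.55, 10.49 and 10.44 in unstimulated empty vector cells and 10.32, 10.23 and 10.18 in H133W cells. With TNFα it read 10.60, 10.57 and 10.54 against 10.43, 10.33 and 10.28, again without overlap. CDCA3 fell by 0.24 ± 0.044 (adjusted p = 0.00155), and its other probe set was lower by 0.26 ± 0.045 (adjusted p = 0.000661). The passenger subunits CDCA8 (borealin) and BIRC5 (survivin) were at −0.16 ± 0.053 and −0.08 ± 0.037 and did not pass (adjusted p = 0.0652 and 0.247). The same held for MKI67, the proliferation marker Ki-67, at −0.10 ± 0.055, and FOXM1, the transcription factor of G2-M genes, at −0.09 ± 0.091. TOP2A, the topoisomerase that untangles chromosomes, was at −0.08 ± 0.045 and did not pass either. A further probe set of BIRC5 fell by 0.24 ± 0.054 (adjusted p = 0.00788), while others were at −0.06 and −0.17 (adjusted p = 0.378 and 0.0621).

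FOXM1 varied more between arrays than between conditions. It read 10.75, 11.26 and 10.96 in unstimulated empty vector cells, 10.70, 10.84 and 10.78 in H133W cells, and 10.66, 10.70 and 11.25 in H133W cells with TNFα. The 2 highest values came from the arrays with the largest β-actin differences.

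**Figure D4:**
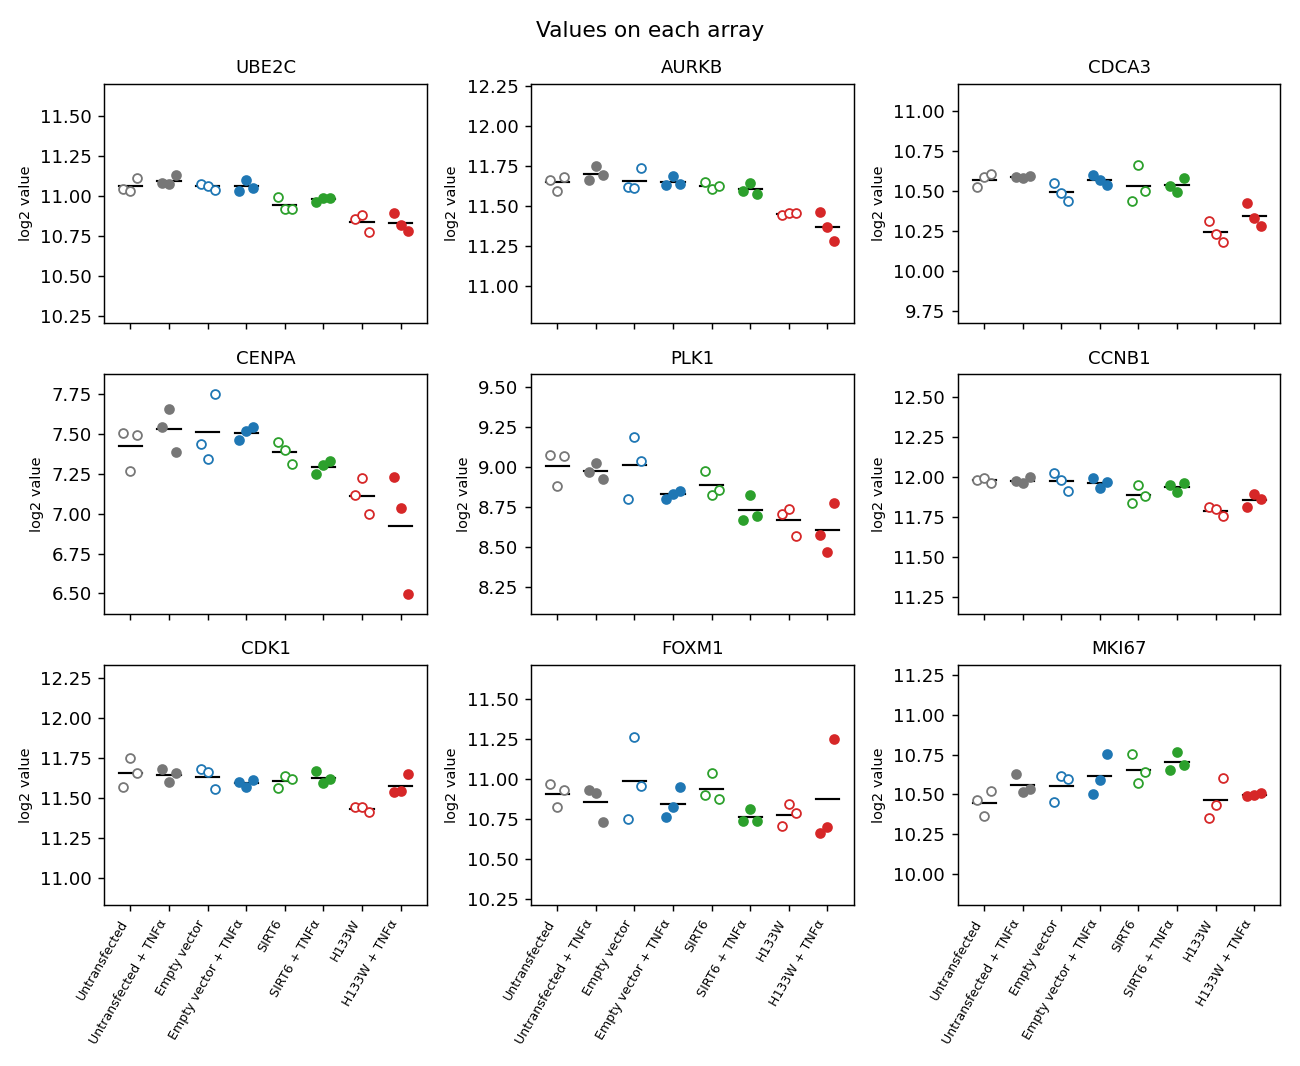
Log2 value on each array of 9 of the genes in the 8 conditions, open circles unstimulated and filled circles with TNFα, with a bar at each mean. Each panel spans 1.5 log2 units, so that steps can be compared across panels. In UBE2C, AURKB and CDCA3 the red points of H133W cells lie below all others, while FOXM1 and MKI67 overlap.

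The members also have 41 further probe sets, on 21 of the genes. Over both states 40 of them were lower in H133W cells than in empty vector cells, 12 fell and none rose. Of the 21322 further probe sets of all named genes 56.1% were lower and 4.65% were called lower. For the genes that fell, 9 further probe sets were present, all were lower, and 3 fell.

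**Figure D5:**
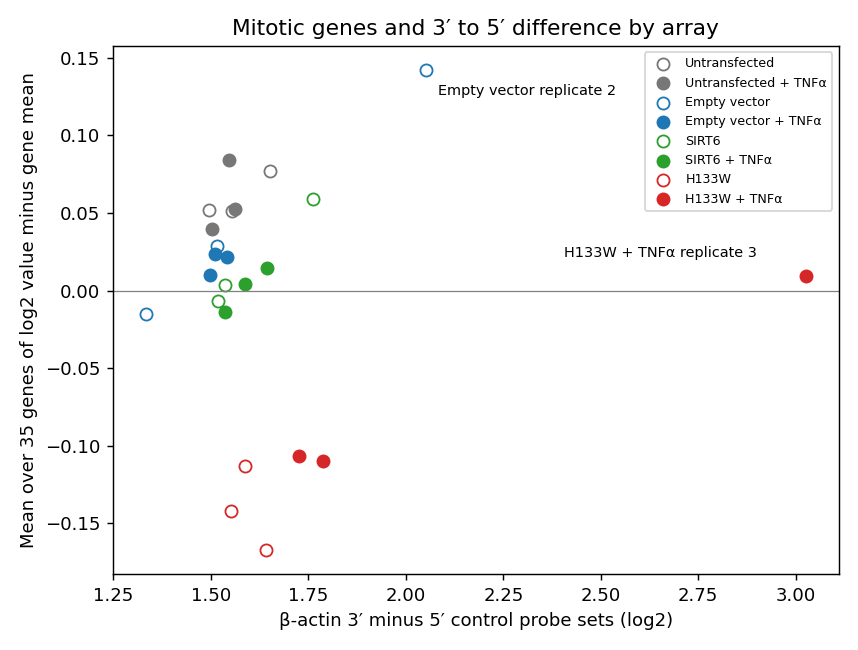
Mean over the 35 genes of the log2 value minus the mean of each gene, for each of the 24 arrays, against the log2 difference between the 3′ and 5′ control probe sets of β-actin. H133W arrays lie between −0.17 and −0.11, apart from replicate 3 with TNFα at 0.01, which is far to the right, and empty vector replicate 2 is the highest at 0.14.

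Taken as a mean over the 35 genes, unstimulated H133W cells were at −0.14 ± 0.027 (SD, n = 3) relative to the mean of all arrays and empty vector cells at 0.05 ± 0.081. With TNFα they were at −0.07 ± 0.068 and 0.02 ± 0.0074. SIRT6 cells were at 0.02 ± 0.035 and 0.0017 ± 0.014, and untransfected cells at 0.06 ± 0.015 and 0.06 ± 0.023. Unstimulated H133W arrays were below every array of another kind of cell, and so were replicates 1 and 2 with TNFα. With TNFα, H133W replicate 3, at 0.01, lay apart from replicates 1 and 2 of its condition, both at −0.11. The β-actin difference of replicates 1 to 3 of this condition was 1.72, 1.79 and 3.03, so that it stood apart on the same array. It was used as a covariate for the single genes, but its part in these means was not tested.

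Whether the mutant differed from the wild type was asked by setting H133W cells against SIRT6 cells. Over both states 34 changes were negative, with a median of −0.10 against −0.01 over all named genes, and 3 genes fell, namely CDCA3 by 0.24 ± 0.044 (adjusted p = 0.00393), AURKB by 0.20 ± 0.040 (adjusted p = 0.00623) and BUB1 by 0.18 ± 0.046 (adjusted p = 0.0375). Of all named genes 4.37% were called and 1.48% called lower. CDCA3 read 10.44, 10.66 and 10.50 in unstimulated SIRT6 cells and 10.53, 10.50 and 10.59 with TNFα, and AURKB 11.65, 11.60 and 11.62 and then 11.59, 11.65 and 11.58. Each of these lies above every H133W array. MKI67 came next, at −0.20 ± 0.055 (adjusted p = 0.0520). It read 10.75, 10.57 and 10.64 in unstimulated SIRT6 cells against 10.35, 10.43 and 10.61 in H133W cells. The other probe sets of MKI67 were at −0.04, −0.03 and −0.07 over both states (adjusted p = 0.860, 0.885 and 0.761). The BUB1 call was lost without any single one of the arrays except H133W replicate 1 or 3 with TNFα, whereas those of CDCA3 and AURKB were kept without each array in turn. The count over both states was 5 without H133W replicate 1 with TNFα and 6 without replicate 3, and the share of all named genes called in these fits was not determined. With the mean of its probe sets AURKB did not pass (adjusted p = 0.0948), nor did CDCA3 on the arrays of the comparison alone (adjusted p = 0.0539).

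By state, 1 gene fell in unstimulated H133W cells against SIRT6 cells (CDCA3), where 0.622% of all named genes were called and 0.091% called lower, with all 35 changes negative and a median of −0.16. With TNFα 1 gene fell (AURKB), where 1.55% were called and 0.329% called lower, with 29 changes negative and a median of −0.06. The CDCA3 call was lost without any single array of its conditions, and the AURKB call without any but H133W replicate 1. Without the 3 arrays named above, the count over both states was 13, against 3.93% of all named genes called lower.

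Wild type SIRT6 was compared with the same empty vector arrays as H133W, so that both comparisons share their controls. None of the 35 genes passed in unstimulated cells, with TNFα or over both states, where 0.101%, 0.212% and 0.819% of all named genes were called by limma. By an unadjusted p under 0.05 there were 1, 0 and 1 genes, beside 1003, 1331 and 1914 of the 19775 named genes. The plain linear model called none of the 35 genes. The median changes were −0.03, −0.01 and −0.02, with 25 of 35 negative over both states. The smallest p was that of UBE2C, whose 11.00, 10.92 and 10.92 in unstimulated SIRT6 cells and 10.96, 10.99 and 10.99 with TNFα all lay below the empty vector arrays. Its difference was −0.10 ± 0.037 (95% interval −0.18 to −0.02, adjusted p = 0.322). CENPA followed at −0.17 ± 0.097, MKI67 at 0.09 ± 0.055 and PLK1 at −0.11 ± 0.066 (adjusted p = 0.624, 0.632 and 0.636). A p that misses the threshold does not show that the levels were alike. Without empty vector replicate 2 the median in unstimulated cells turned to 0.02, with 13 of 35 negative.

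TNFα was asked about in each kind of cell and as an average over the 4 kinds. None of the 35 genes passed in untransfected, empty vector, SIRT6 or H133W cells, in which 2.46%, 2.98%, 3.18% and 4.26% of all named genes were called, and none over the average, in which 14.1% were called. Unadjusted p-values were under 0.05 for 0, 0, 2 and 5 of the 35 genes and for 4 over the average. Of the 19775 named genes this held for 1999, 2652, 2479 and 3620, and for 5240 over the average. The plain linear model called none of the 35 genes in any of them. The medians were −0.01, −0.01, 0.01, 0.07 and 0.01. KIF23 had the smallest p over the average, at 0.12 ± 0.049 (adjusted p = 0.121). It read 9.36, 9.47 and 9.40 in untransfected cells and 9.45, 9.39 and 9.60 with TNFα, and 9.09, 8.98 and 9.21 in SIRT6 cells and 9.33, 9.13 and 9.46 with TNFα. PLK1 was at −0.11 ± 0.046, CDC25B at −0.12 ± 0.051 and CDCA8 at 0.08 ± 0.037 (adjusted p = 0.146, 0.168 and 0.197). Without the 3 arrays named above CDC25B, CDC25C and PLK1 fell and 3 genes rose over the average, where 17.9% of all named genes were called lower and 7.39% called higher, and 3 were called without H133W replicate 3 with TNFα alone and 1 without empty vector replicate 1 of the unstimulated cells.

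The difference between the H133W effects in the 2 states was tested as an interaction. None of the 35 genes passed by limma or by the plain linear model, and 0.0101% of all named genes were called. An unadjusted p under 0.05 was found for 1366 of the 19775 named genes and for 2 of the 35. The median difference was 0.11, that is, a smaller deficit with TNFα, and 29 genes lay farther below empty vector cells without TNFα than with it. Over all named genes the median was 0.05, with 12185 of 19775 positive. For the 35 genes the median was 0.06 without empty vector replicate 2, 0.05 without H133W replicate 3 with TNFα, and 0.02 without the 3 arrays. The 2 genes were CDK1 at 0.18 ± 0.081 and CENPE at 0.24 ± 0.11 (adjusted p = 0.567 for both). For SIRT6 against empty vector and for empty vector against untransfected cells none of the 35 genes passed the interaction by limma or by the plain linear model, and 0% of all named genes were called in each. None of the 35 had an unadjusted p under 0.05, beside 312 and 408 of the 19775 named genes.

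Transfection as such was asked about by setting empty vector cells against untransfected cells. None of the 35 genes passed by limma in unstimulated cells, with TNFα or over both states, where 0.228%, 0.0455% and 2.95% of all named genes were called. An unadjusted p under 0.05 was found for 1, 0 and 2 of the 35 and for 2157, 1777 and 3460 of the 19775 named genes. Of the 35 genes the plain linear model called none in either state and 1 over both. TPX2 read 10.53, 10.48 and 10.53 in untransfected cells and 10.40, 10.49 and 10.33 in empty vector cells, and with TNFα 10.52, 10.46 and 10.53 against 10.40, 10.40 and 10.41, a difference of −0.11 ± 0.036 (adjusted p = 0.100). KIF23 was at −0.17 ± 0.069, CDCA8 at −0.11 ± 0.053 and BUB1 at −0.10 ± 0.046 (adjusted p = 0.157, 0.244 and 0.246). Of these 4 genes KIF23 had arrays that did not overlap. Without the 3 arrays TPX2 fell, where 1.91% of all named genes were called lower.

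Further genes of mitosis that are not among the 35 were taken from a list of 67. Over both states 51 of them were lower in H133W than in empty vector cells, with a median of −0.08, and 10 fell while none rose, where 5.34% of all named genes were called lower. The smallest adjusted p were those of SPC24 and SPC25, which form the inner end of the NDC80 kinetochore complex, at −0.39 ± 0.050 and −0.28 ± 0.045 (adjusted p = 2.4e-05 and 0.000288). OIP5, which loads CENPA onto centromeres, followed at −0.20 ± 0.040 and FAM83D, a spindle protein, at −0.32 ± 0.075 (adjusted p = 0.00313 and 0.00990). Of 13 subunits of the anaphase-promoting complex 9 were lower, with a median of −0.04, and none passed by limma or by the plain linear model. An unadjusted p under 0.05 was found for 4 of them and for 5014 of the 19775 named genes.

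Of 41 genes of G1-S and replication licensing 19 were lower, with a median of 0.01, and 2 fell and 6 rose. Of the 19775 named genes 1055 were called lower and 1303 called higher in this comparison. CDT1, a licensing factor, rose by 0.55 ± 0.071, CDC25A, the phosphatase of the G1-S step, by 0.20 ± 0.038 and ORC1, a subunit of the origin recognition complex, by 0.44 ± 0.11 (adjusted p = 3.8e-05, 0.00174 and 0.0139). CCND1, cyclin D1, fell by 0.17 ± 0.042 (adjusted p = 0.0148). The difference between the lists was not tested.

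Among 6 fibroblast markers 2 fell in H133W cells against empty vector cells over both states, where 5.34% of all named genes were called lower. These were PDGFRA, by 0.69 ± 0.13, and COL3A1, by 0.36 ± 0.084 (adjusted p = 0.00150 and 0.00885). COL1A1 and DCN were at 0.06 and 0.03, and COL1A2 and LUM at −0.05 and −0.33 (adjusted p = 0.829, 0.897, 0.886 and 0.268). The summed level of the 6, on the linear scale of the arrays, was 403 to 525 in unstimulated empty vector cells and 340 to 361 in H133W cells, and 370 to 399 and 341 to 475 with TNFα. This sum thus moved with the mitotic genes in unstimulated cells, and its part in their values was not tested. COL3A1 and COL1A1 weighed most in it, with mean log2 values of 7.46 and 7.38 against 4.22 for PDGFRA, the next. The summed level of the 3 blood cell markers measured was 26.5 to 27.5 and 26.7 to 26.8 in the same unstimulated cells. No marker can be called absent, since RMA gives every probe set a value, and the 6 fibroblast markers lay at percentiles from 6.01 (LUM) to 54.6 (COL3A1) of all named genes, with COL1A1 at 54.0, PDGFRA at 27.0 and DCN at 20.4.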

How the data were processed

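RNA of HEK293 cells had been hybridised to Affymetrix HG-U133 Plus 2.0 arrays, 24 in all. The values deposited by the authors are log2 intensities of 54675 probe sets after RMA normalisation with ArrayStudio 4.0, and no further normalisation was applied to them. Their scale ran from 1.52 to 13.75. RMA forces the arrays to a common distribution, so that a shift of most genes would not be seen. The 24 columns were matched to samples by their labels, with 0 columns left over, and no pair of arrays was identical. Probe sets were named by the platform's gene table and Entrez ID, which gave 41097 probe sets with 1 gene and 19775 genes. Columns of the authors' own comparisons were not used.

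Condition means, 8 in number, were fitted in R 4.3.3 with limma 3.58.1 (lmFit, eBayes), and 17 comparisons and 3 interactions were taken as contrasts. P-values are two-sided and were adjusted by Benjamini-Hochberg over all probe sets of a contrast. The methods of the study add a fold threshold of 1.5. The fit was tested on simulated data. Alternatives were the plain linear model of the methods, the comparison's arrays alone, a variance trend, array weights, re-centred or re-quantiled arrays, no dim probe sets, the mean of a gene's probe sets, adjustment over 1 probe set per gene, the β-actin difference as a covariate, a replicate block, and leaving out 3 arrays or each in turn.

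The 35 genes and all lists were chosen with earlier results of these data known, and support nothing by themselves. Arrays were printed for the up to 8 genes with the smallest adjusted p in H133W against empty vector over both states, for up to 4 in other averaged comparisons, and for CCNB1, CDK1, PLK1, FOXM1 and MKI67. Of other lists up to 4 called genes with the smallest adjusted p were named. TTK and AURKA, the genes of small counts and the markers that passed were named after their values were seen.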

Additional observations from a re-analysis of the deposited data

How the results depend on the processing

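None of the 22 single-gene results reversed. At any fold, UBE2C, AURKB, CDCA3 and CENPA passed in H133W against empty vector over both states under every alternative. They also passed without each array in turn, but none of them passed there at a fold over 1.5. The number of arrays limits the counts, which moved more than the medians, and except where fewer arrays or a fold threshold enter by construction the cause was not tested. In H133W against empty vector, the number of the 35 genes called (3 unstimulated, 4 with TNFα, 10 over both) was 9 unstimulated by the plain linear model, 0, 0 and 4 on the arrays of the comparison alone, 11 unstimulated with a variance trend, 7 and 18 (unstimulated and both) with array weights, 9 unstimulated after centring, 11 unstimulated without dim probe sets, and 8, 7 and 16 with the mean of all probe sets. It was 5 and 16 (unstimulated and both) without the 3 arrays, 16 and 22 with the β-actin covariate, 7 unstimulated when adjusted over 1 probe set per gene, and 0, 1 and 0 at a fold over 1.5. The medians moved to −0.12 unstimulated and −0.11 with TNFα without the 3 arrays, to −0.11 with TNFα with array weights, to −0.13 with TNFα and −0.16 over both with the mean of all probe sets, and to −0.14 with TNFα and −0.17 over both with the covariate. In H133W against SIRT6 the count (1 unstimulated, 1 with TNFα, 3 over both) was 3 with TNFα and 9 over both by the plain linear model, 0, 0 and 1 on the comparison alone, 9 over both with a variance trend, 4 unstimulated and 15 over both with array weights, 0 and 0 in the single states after centring, 8 over both without dim probe sets, 3 with TNFα and 8 over both with the mean of all probe sets, 4, 0 and 13 without the 3 arrays, 2, 0 and 9 with the covariate, 5 over both when adjusted over 1 probe set per gene, and 0 in each at a fold over 1.5. Its median with TNFα moved to −0.10 with array weights, −0.11 with the mean of all probe sets and −0.13 with the covariate, and over both to −0.14 with the covariate. For TNFα in H133W cells 1 gene was called with array weights and 1 with the mean of all probe sets, and the median (0.07) moved to 0.12 after centring, 0.0069 with the mean of all probe sets, and 0.028 without the 3 arrays or with the covariate. For TNFα over the average 7 were called with array weights, 3 with the mean of all probe sets, 6 without the 3 arrays and 4 with the covariate. Without the 3 arrays 17.9% of all named genes were called lower there and 7.39% higher. Called lower without them were 2.48% (unstimulated) and 8.87% (both) in H133W against empty vector, and 0.92%, 0.485% and 3.93% against SIRT6. For other alternatives this share was determined only for the fold threshold and for the covariate in H133W against empty vector. For empty vector against untransfected cells over both states 1 was called by the plain linear model, 2 with array weights, 1 without the 3 arrays and 1 with the covariate. The median of SIRT6 against empty vector in unstimulated cells (−0.03) moved to 0.022 without the 3 arrays, and that of its interaction with TNFα (0.03) to −0.016. The median of the H133W interaction (0.11) moved to 0.030 with array weights, 0.16 after centring, 0.0016 with the mean of all probe sets, 0.022 without the 3 arrays and 0.014 with the covariate.

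Leaving out each array in turn (24 fits), the count in H133W against empty vector ranged from 0 to 5 unstimulated, 1 to 4 with TNFα and 7 to 17 over both, with medians from −0.22 to −0.12, −0.11 to −0.062 and −0.15 to −0.10. Against SIRT6 it was 0 unstimulated, 0 to 2 with TNFα and 2 to 6 over both, with medians from −0.16 to −0.12, −0.090 to −0.034 and −0.13 to −0.091. For TNFα over the average it was 0 to 3. The median for SIRT6 against empty vector ranged from −0.063 to 0.022 unstimulated, for TNFα in H133W cells from 0.028 to 0.10, for the SIRT6 interaction from −0.016 to 0.047, and for the H133W interaction from 0.054 to 0.15. Replicate numbers did not pair the arrays (arrays with the same number had a median correlation of −0.0028 in their deviations, and 9 of 24 correlated best with their own number). With the replicate number as a block the counts were 2, 3 and 9 in H133W against empty vector, 0, 0 and 2 against SIRT6 and 0 in the other comparisons.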
